A study of Mus musculus with 15 samples.

Results

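Alpha cells of the mouse islet were compared with both other sorted islet cell types, and the genes described here are those that separated them from beta and delta cells at once. A gene was taken when 1 or more of the cell type means exceeded 1 FPKM and all 5 alpha values lay above, or all 5 lay below, every one of the other 10 values. FPKM, the unit of the deposited table, counts sequenced fragments relative to the length of the transcript and to all mapped reads of the sample. Of its 38283 genes, 14405 passed the 1 FPKM limit and 242 met the rule. In 113 of them, 0.784% of the genes tested, the alpha values were all above the others, and in 129 (0.896%) they were all below. The genes were ranked by the smaller of 2 differences in mean log2(FPKM + 1), that of alpha from beta cells and that of alpha from delta cells. Because the measured values chose these genes, their levels and differences between alpha and the other cells are given as a description, with standard errors but no test.

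Glu-Venus mice gave the 5 alpha and the 4 beta samples, and Sst-CreXROSA26EYFP/EYFP mice gave the 6 delta samples. All were on the C57BL/6 strain and no treatment was compared. In Glu-Venus mice the promoter of the proglucagon gene drives the fluorescent protein Venus, so alpha cells were collected as Venus-positive cells and beta cells as Venus-negative cells of high scatter and autofluorescence. In the other line Cre under the somatostatin promoter switches on EYFP at the Rosa26 locus. Islets of 2 to 5 mice were pooled before each sort, so the spread, and with it each p-value, is one between pools. Ages were not given in the sources used here. The delta samples came from another mouse line than the alpha samples, and line and cell type cannot be told apart there.

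Alpha cells secrete glucagon, the hormone that raises hepatic glucose output when blood glucose is low. Glucagon is cut from proglucagon, the product of Gcg, by prohormone convertase 2, while prohormone convertase 1/3 cuts proinsulin in beta cells and yields GLP-1 in intestinal L cells. Transcription factors set the fate of islet precursors and hold it in mature cells, and PDX1 holds the beta cell programme.

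Both genes set as markers of these cells, Gcg and Irx2, met the rule. Gcg was at 211812, 344947, 333564, 184426 and 290635 FPKM in the alpha samples, numbered 1 to 5. It was at 261, 1817, 166 and 299 FPKM in the beta samples and between 236 and 767 (median 526) FPKM in the delta samples. No other gene that met the rule had so large a smaller difference. The differences were 9.40 ± 0.611 (SE, limma) from beta and 9.12 ± 0.552 from delta cells, and the beta mean was 0.233% and the delta mean 0.189% of the alpha mean. Irx2, an Iroquois homeobox factor, was at 32.3, 16.2, 9.01, 20.1 and 52.2 FPKM in alpha, at 0.0377, 1.22, 0.232 and 0.3305 FPKM in beta and between 0.678 and 4.53 (median 2.07) FPKM in delta samples. The difference was 4.04 ± 0.466 from beta and 2.83 ± 0.421 from delta cells, which ranked it 31st of the 113.

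The start regions of both genes are shown because the first is the promoter behind the Venus label and the second lies between a pair of genes that both met the rule. Both come from RefSeq (GRCm38.p6) and end 1 base before the start of transcription. In the GENCODE annotation of the same build Gcg lies on chr2:62474530-62483650, minus strand, and the RefSeq start lies 3 bases before that of GENCODE. The capitals mark TATAAA, first on the opposite strand and then, 24 bases before the start, on the strand of the gene:
Gcg, chr2:62483654-62483773, minus strand: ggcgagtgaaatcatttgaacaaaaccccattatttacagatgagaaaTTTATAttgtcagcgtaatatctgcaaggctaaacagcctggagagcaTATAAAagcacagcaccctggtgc
Irx2 lies on chr13:72628820-72634198, plus strand. The long non-coding RNA gene Gm20554 lies head to head with it on the minus strand, at chr13:72626213-72628564, and 255 bases separate them. Of these, 250 are shown, and they hold none of the 5 motifs searched:
Irx2, chr13:72628570-72628819, plus strand: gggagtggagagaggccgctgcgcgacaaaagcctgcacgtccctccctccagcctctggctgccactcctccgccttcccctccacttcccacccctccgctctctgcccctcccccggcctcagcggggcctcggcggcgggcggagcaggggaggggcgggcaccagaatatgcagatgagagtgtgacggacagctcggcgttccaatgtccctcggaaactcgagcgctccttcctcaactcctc
Gm20554 was at 3.19, 5.81, 4.46, 1.94 and 3.85 FPKM in alpha samples, at no more than 0.0714 FPKM in beta samples and at no more than 0.672 FPKM in delta samples, so both genes of the pair stood highest in alpha cells. Windows from 250 bases before to 50 bases after a start were searched on both strands for 5 short motifs, none of which contains another. TATAAA was in 12 of 116 windows of genes with alpha above (10.3%), in 11 of 141 windows of genes with alpha below (7.8%) in 7.08% of windows of tested genes and in 13.6% of all 32851 windows. TAATTA, a core that homeodomain proteins bind, was in 0.862%, 4.26%, 2.63% and 5.29% of these windows. The forkhead motif TGTTTAC was in 1.72%, 2.84%, 2.68% and 3.65%, TGCTGA, part of the site of Maf factors, in 18.1%, 22.7%, 15.2% and 19.5%, and the cAMP response element TGACGTCA in 1.72%, 2.13%, 3.12% and 1.79%. Windows were found for 78 of the 113 and 96 of the 129 genes, and the shares are a description.

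The alpha samples had between 14761 and 17122 genes above 0 FPKM, the beta samples between 15286 and 17752 and the delta samples between 16342 and 18559. The table holds no read totals, so no floor of detection is given and zeros are given as listed in it. Alpha markers fixed as a list summed to between 195700.0 and 364800.0 FPKM in alpha samples, and to at most 3824 in beta and 1498 in delta samples. Gcg alone, which met the rule, was at 184426 to 344947 FPKM in alpha samples, so this sum mostly restates it. Insulin and somatostatin transcripts were present in the alpha samples, with Ins2 at 5534 ± 2307 FPKM (SD, n = 5) against 295241 ± 252306 (n = 4) in beta cells, and Sst at 1619 ± 527 against 163268 ± 77761 (n = 6) in delta cells. Ppy and Pyy, listed as markers of pancreatic polypeptide cells, summed to between 57420.0 and 85550.0 FPKM in alpha, 62.9 and 283 in beta and 35520.0 and 114000.0 in delta samples. Pyy had the larger mean in alpha (37759 against 30424 FPKM) and in delta cells (46749 against 21473 FPKM). The sum is therefore not read as an amount of such cells, and its part in the results was not tested. Endothelial markers summed to at most 3.38 FPKM and red cell markers to at most 5.09 FPKM in any sample. In such bulk samples fewer cells of a type and less RNA per cell cannot be told apart. In summed ribosomal protein transcripts (90 genes), 6 samples stood apart from the other 9 (alpha 1 to 3, beta 2 and delta 1 and 2 at 66146 or more, the others at 39154 or less). The high set held a single beta sample, beta 2.

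Genes with all alpha values above were mostly low outside alpha cells. In 67 of the 113 only the alpha mean was above 1 FPKM, and these had passed the limit through the group in which they were high. In 26 all 3 cell types were above 1 FPKM. The alpha mean was above 100 FPKM for 8 genes, between 10 and 100 for 43 and between 1 and 10 for 62, with a median of 8.42 FPKM. All 4 beta values were listed at 0 for 17 genes, and all 6 delta values for 2. The smaller difference was at least 1 for 101 genes, at least 2 for 49 and at least 4 for 9, with a median of 1.86 and a range from 0.50 (Sprtn) to 9.12 (Gcg). Among the 129 genes with alpha below, the smaller difference was at least 1 for 97, at least 2 for 28 and at least 4 for 2, with a median of 1.50. Their alpha mean was at or below 1 FPKM for 81 genes, and 48 had at least 1 alpha value listed at 0.

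By limma, with Benjamini-Hochberg adjusted p under 0.05 over all 14405 genes, 695 genes (4.82%) were higher and 409 (2.84%) lower in alpha than in beta cells, and 213 (1.48%) were higher and 768 (5.33%) lower in alpha than in delta cells. Of the 113 genes, 108 were called higher than in beta and 98 higher than in delta cells, and of the 129, 100 were called lower than in beta and 98 lower than in delta cells. Nothing is read from these counts, since the rule used the same contrasts. Among the 14163 tested genes outside the rule, 4.14% were called higher and 2.18% lower than in beta cells, and 0.812% higher and 4.73% lower than in delta cells, and the calls of each gene list are given outside the rule, to be read against these shares. The share of calls higher in alpha depended on scaling and on single beta samples. It was 63.0% against beta and 21.7% against delta cells as deposited, 47.3% and 32.2% after median-ratio size factors, and 52.4% and 43.2% after quantile normalization. Against beta cells it was 39.8% without beta 3 and 78.8% without beta 2.

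**Figure D1:**
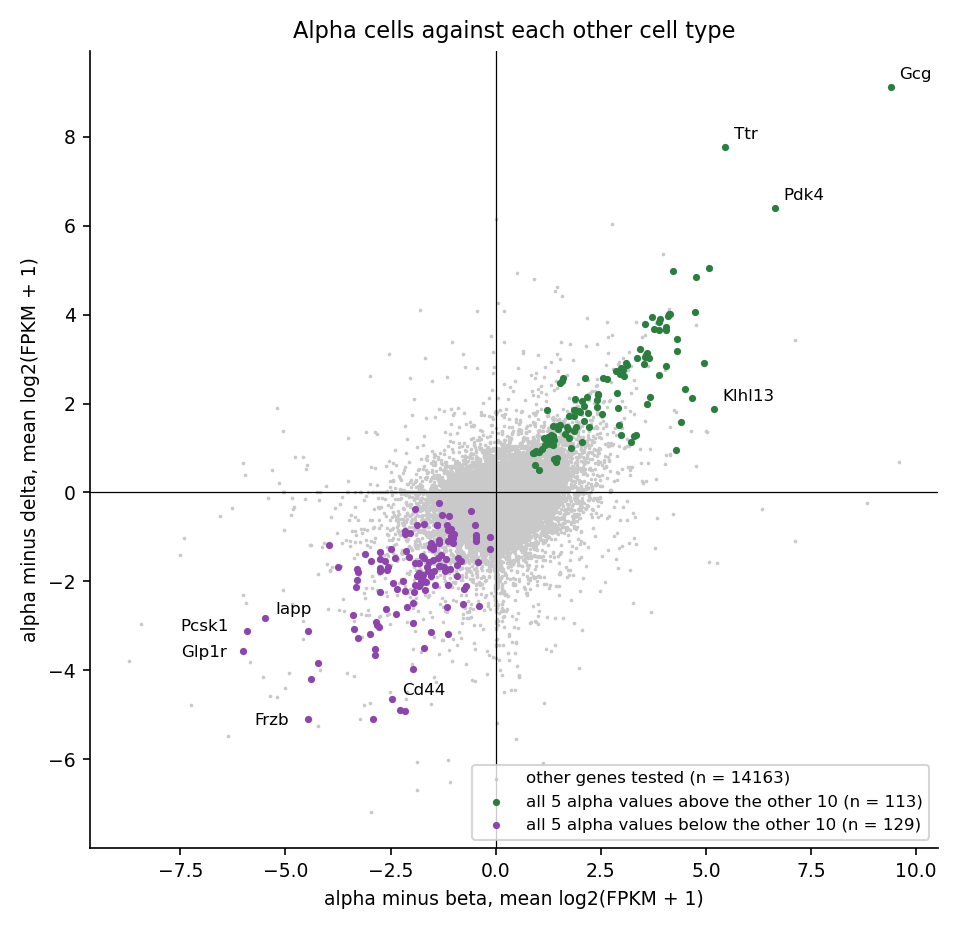
Difference in mean log2(FPKM + 1) of alpha from beta cells (x axis) and of alpha from delta cells (y axis) for the 14405 genes tested, each point 1 gene. Green points are the 113 genes with all alpha values above the other 10 and purple points the 129 with all below; Gcg stands farthest out, at 9.40 and 9.12.

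Of the 9 secreted proteins with alpha above, Gcg and Ttr were by far the most abundant. Ttr encodes transthyretin, a carrier of thyroxine and of retinol-binding protein. It was at 14071, 18658, 16366, 10429 and 18704 FPKM in alpha, 187, 1186, 139 and 463 FPKM in beta and between 44.02 and 124 (median 72.02) FPKM in delta samples. The groups lay well apart, but beta cells held more than delta cells, and 1 beta sample (beta 2) was far above the other 3 in both Ttr and Gcg. C8b, the beta chain of complement component C8, had alpha values from 112 to 229 FPKM and no other value above 27.7. Pappa2, a metalloproteinase that cleaves insulin-like growth factor binding protein 5, ranged from 24.9 to 285 FPKM in alpha and up to 22.1 FPKM in the other samples, so that the groups nearly met. Sfrp5, a secreted inhibitor of Wnt signalling, had an alpha range of 40.02 to 82.5 FPKM above a delta range of 13.6 to 27.8. Spon2, Nxph1, Ccdc3 and Tgfb2 completed the group.

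Transcription factors and their partners, a role assigned by hand and so without a share over all genes, made up 10 of the 113 genes. Irx1, the Iroquois neighbour of Irx2 on chromosome 13, was at 10.8, 14.5, 7.07, 18.02 and 43.7 FPKM in alpha samples and at up to 1.33 FPKM (delta 6) elsewhere. It ranked 16th and varied among alpha samples yet kept clear of all other samples, with alpha 3 the lowest and alpha 5 the highest. The POU-domain factor Pou3f4, which binds the glucagon promoter in cell lines, was at 3.097, 8.15, 3.86, 5.27 and 5.92 FPKM in alpha samples and listed at 0 in 7 of the other 10. Further factors were Mamld1, a mastermind-like coactivator of Notch signalling, the orphan nuclear receptor Nr4a2, the retinoid X receptor Rxra and Id3, an inhibitor of helix-loop-helix factors. Their alpha means were 27.5, 8.31, 10.6 and 2.08 FPKM.

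Within the ribosomal sets, 55 of the 113 genes had the larger difference from beta cells in the high set and 58 in the low set, and the sets differed by more than 1 for 31 of them. For Irx1 it was 3.51 in the high and 4.85 in the low set, for Irx2 3.01 and 4.81, and for Pou3f4 2.38 and 2.72. Gcg (7.32 and 9.94), Ttr (3.78 and 5.92) and Nid1 (1.35 and 3.23) also had the larger difference in the low set. The high set had the larger one for AC142191.1 (4.95 and 2.72), Higd1a (5.61 and 4.07) and Hhatl (4.45 and 3.10). Of the 129 genes with alpha below, 117 were farther below beta cells in the high set, which rests on beta 2 alone. Against delta cells 61 of the 129 had the larger difference in the high and 68 in the low set, and of the 113, 62 and 50. The part of ribosomal content in these differences was not tested beyond this.

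A list of islet transcription factors, chosen with earlier results of these data known, had 46 tested members. Of these, 6 met the rule with alpha above, Irx1, Irx2 and Pou3f4 among them, and 2, Pdx1 and Mlxipl, with alpha below. Among the other 38, limma called 2 higher and 3 lower in alpha than in beta cells (4 and 5 with size factors, 4 and 4 with quantile normalization), and 6 lower and 0 higher than in delta cells (3 higher at an unadjusted p under 0.05, and 1 called with size factors or quantile normalization). The shares of all genes outside the rule were 4.14% higher and 2.18% lower than in beta and 0.812% and 4.73% than in delta cells. The median difference over these 38 was 0.28 from beta and -0.52 from delta cells, against 0.13 and -0.13 over all genes tested. The ETS factor Etv1 was higher than in beta cells and did not pass the test against delta cells, at 126 ± 28.8 FPKM (SD, n = 5) in alpha, 7.06 ± 3.72 (n = 4) in beta and 69.02 ± 14.4 (n = 6) in delta cells (limma adjusted p = 8.02e-06 and 0.245). Gata6 likewise stood at 5.31 ± 1.39 in alpha, 0.3395 ± 0.168 in beta and 5.72 ± 1.57 in delta cells (limma adjusted p = 0.000136 and 0.947). On the other side Nkx6-1, Mafa and Mnx1, which act in beta cells, were lower than in beta cells, and Hhex, Neurog3, Hnf4a and Insm1 were lower than in delta cells, where Hhex maintains identity. Among 30 tested homeobox-type factors 5 had all alpha values above and 1 all below, against 0.784% and 0.896% of all genes tested. Of the 24 outside the rule, 3 were lower in alpha than in beta cells and 3 lower than in delta cells. None was called higher in either, and the median differences were -0.09 and -0.48. With size factors or quantile normalization 1 was higher and 5 lower than in beta cells, and 2 were lower than in delta cells.

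**Figure D2:**
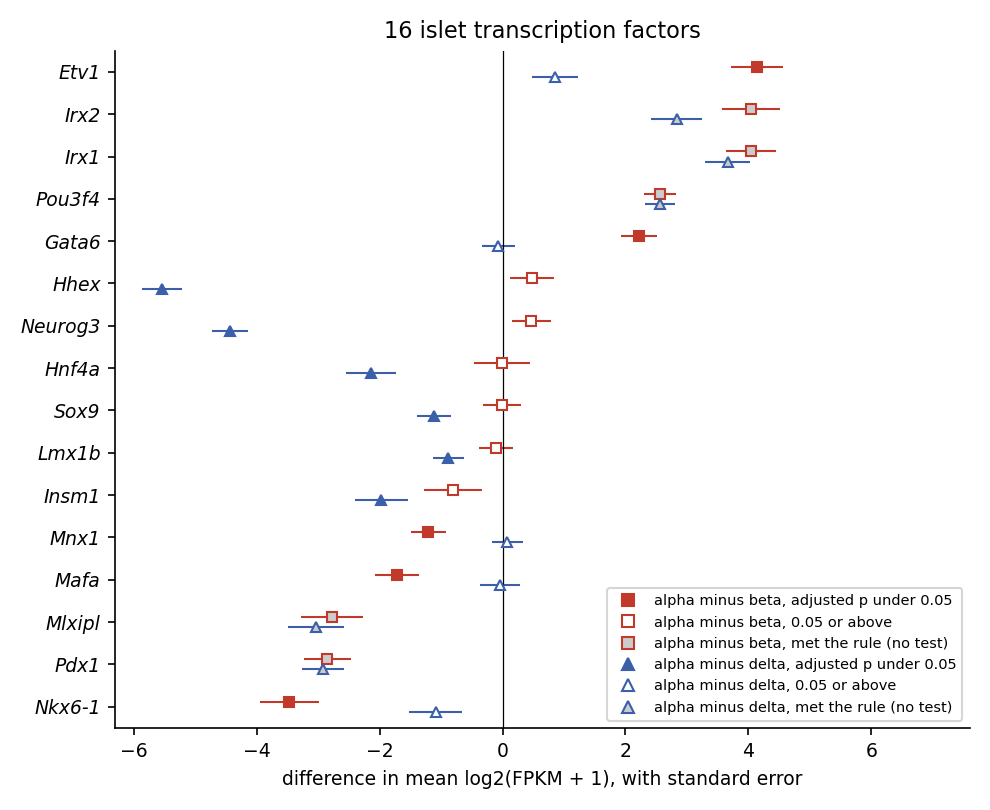
Difference in mean log2(FPKM + 1) of alpha from beta cells (red squares) and from delta cells (blue triangles), with its standard error, for 16 listed islet transcription factors that passed the limma test in at least 1 of the 2 comparisons. Coloured symbols have adjusted p under 0.05, white ones do not, and grey ones mark the 5 genes that met the rule and carry no test; Etv1 and Gata6 lie to the right against beta cells, and Hhex and Neurog3 farthest to the left against delta cells.

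**Figure D3:**
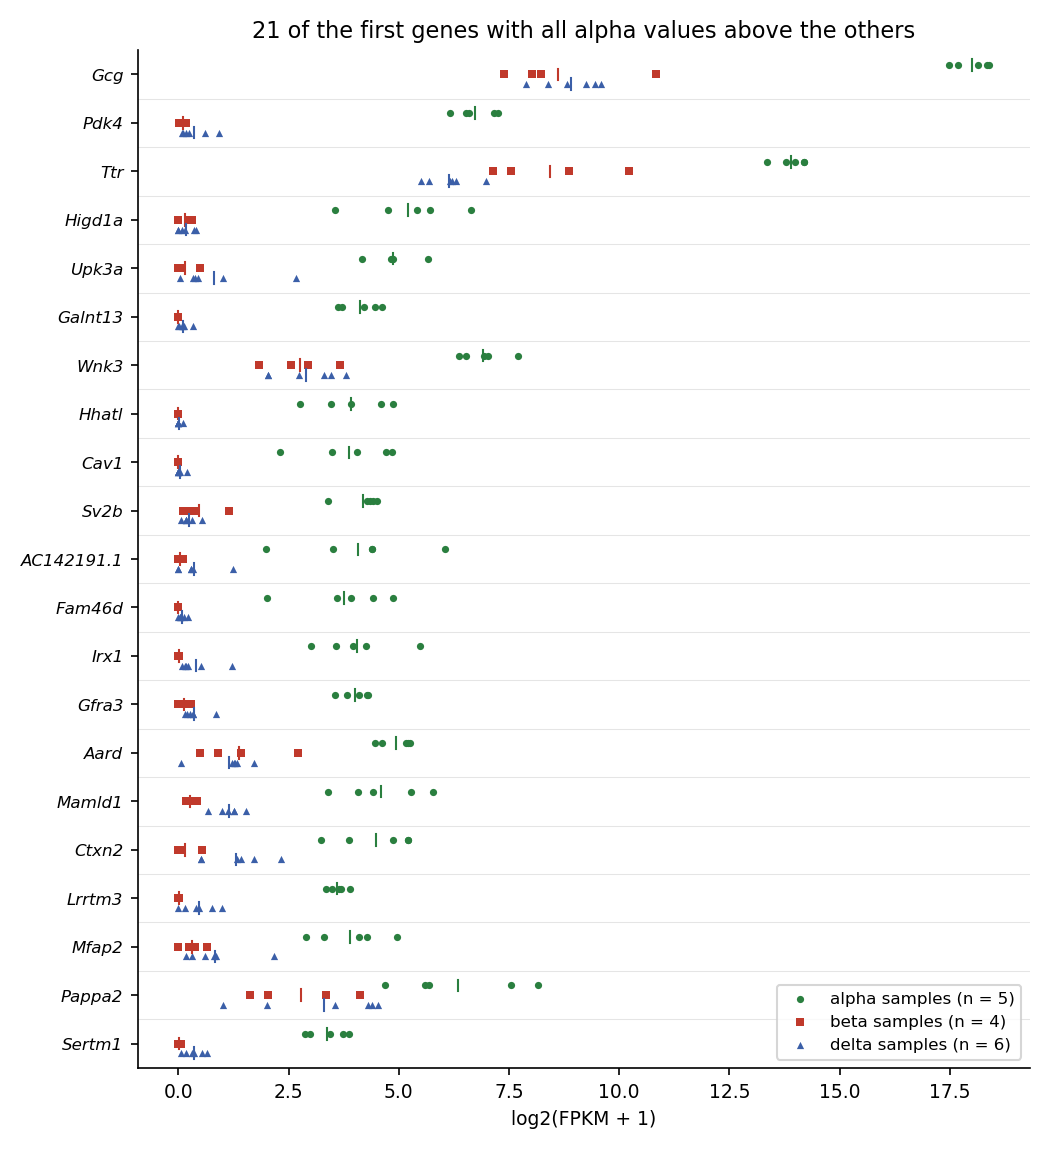
log2(FPKM + 1) of every sample for 21 of the 25 genes that ranked first with all alpha values above (circles, alpha, n = 5; squares, beta, n = 4; triangles, delta, n = 6; vertical bars, group means). Alpha values lie right of all others for every gene, as the rule requires; Gcg and Pdk4 show the widest gaps to the nearest other sample and Pappa2 the narrowest of those drawn.

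Other genes of the first 25 had no role assigned or a role outside the endocrine pancreas. Upk3a, which encodes a plaque protein of urothelium, was at 27.6, 28.4, 49.96, 17.1 and 27.4 FPKM in alpha samples and reached 5.38 FPKM in delta 1. Hhatl, related to a palmitoyl transferase, was at 28.1, 23.1, 13.98, 5.71 and 9.99 FPKM, was listed at 0 in all 4 beta samples and in 5 of 6 delta samples, and stood at 0.0732 FPKM in the remaining one (delta 2). Its lowest alpha value was 78.01 times that, a gap close to that of Pdk4. The long intergenic RNA gene AC142191.1 was the most uneven, at 20.1, 19.97, 65.5, 2.98 and 10.3 FPKM, with alpha 3 far above the rest and only 2.2 times between the lowest alpha and the highest other value. Aard ranged from 20.9 to 36.9 FPKM in alpha with no other value above 5.51, Ctxn2 from 8.42 to 36.1 with none above 4.02, Fam46d from 2.996 to 28.1 with none above 0.1701, and Sertm1 from 6.28 to 13.7 with none above 0.572.

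Of the 8 receptors with alpha above, 4 couple to G proteins. Avpr1b, a vasopressin receptor through which vasopressin raises glucagon release, was at 7.18, 9.36, 4.07, 8.22 and 8.87 FPKM in alpha samples and at no more than 0.492 FPKM elsewhere. Gpr81, the receptor for lactate also named Hcar1, was at 7.56, 16.9, 3.36, 6.02 and 8.27 FPKM in alpha samples and at up to 1.18 FPKM (delta 2) elsewhere. Vipr1, a receptor for vasoactive intestinal peptide, was at 11.1 ± 3.83 FPKM (SD, n = 5) in alpha, 3.11 ± 1.35 (n = 4) in beta and 1.14 ± 0.688 (n = 6) in delta cells. The short-chain fatty acid receptor Ffar2 was close to the rule's edge, with a lowest alpha value of 8.22 FPKM against 7.38 FPKM in delta 2. Gfra3, the co-receptor for artemin, was at 10.7 to 18.6 FPKM in alpha cells and at no more than 0.794 FPKM in all other samples. Kit, Cd2 and Eda2r were lower, with alpha means of 2.87, 2.24 and 1.91 FPKM.

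Among 28 tested receptors listed for their bearing on glucagon release, 4 had all alpha values above and 4 all below. Of all genes tested, 0.784% and 0.896% did so, and the list was chosen with earlier results of these data known. The 4 above were Avpr1b, Vipr1, Gpr81 and Ffar2, and the 4 below Glp1r, P2ry1, Adra2a and Gcgr. Of the 20 receptors outside the rule, 4 were higher and 3 lower than in beta cells, and 2 higher and 5 lower than in delta cells, with median differences of 0.15 and -0.28. The shares of all genes outside the rule were 4.14%, 2.18%, 0.812% and 4.73%. Gpr119, a receptor for oleoylethanolamide, was higher than in both cell types, at 38.2 ± 22.5 FPKM (SD, n = 5) in alpha, 6.61 ± 7.93 (n = 4) in beta and 2.31 ± 1.61 (n = 6) in delta cells (limma adjusted p = 0.0113 and 0.000431). The somatostatin receptor Sstr2 was at 2.51 ± 1.16 in alpha, 0.0154 ± 0.0308 in beta and 0.374 ± 0.248 in delta cells (limma adjusted p = 0.00342 and 0.0104). Oxtr, the oxytocin receptor, was higher than in beta cells (limma adjusted p = 0.000163 against beta and 0.836 against delta cells), with means of 20.9, 0.531 and 14.8 FPKM. Ghsr, the ghrelin receptor, was lower than in delta cells, at 0.158 against 11.7 FPKM (limma adjusted p = 1.8e-07).

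Genes whose symbols begin with Kcn occurred on both sides, while none of 13 tested calcium and 7 tested sodium channel subunits met the rule. Kcnip3, a calcium-binding partner of Kv4 potassium channels, had alpha values from 4.71 to 27.01 FPKM and no other value above 1.38, whereas its relatives Kcnip1 and Kcnip2 had all alpha values below. Kcnj3, the G protein-gated potassium channel subunit GIRK1, was at 5.29 to 14.4 FPKM in alpha, at most 0.107 in beta and 2.05 to 4.56 FPKM in delta samples. Of 42 tested genes whose symbols begin with Kcn, 38 lay outside the rule. Of these, 6 were higher and 3 lower in alpha than in beta cells (4.14% and 2.18% of all genes outside the rule), and 1 was higher and 8 lower than in delta cells (0.812% and 4.73%). Their median differences of 0.26 and -0.58 compare with 0.13 and -0.13 over all genes tested. With size factors 7 were higher and 7 lower than in beta cells. Wnk3, a kinase that controls cation-chloride cotransporters, ranked 9th, at 81.4, 121, 90.4, 129 and 208 FPKM in alpha samples and at most 12.96 FPKM elsewhere. The carriers with alpha above were Slc27a2, a fatty acid transporter and acyl-CoA synthetase, Slc41a2, a magnesium transporter, and Slco4a1, a thyroid hormone and organic anion transporter. Of 22 tested amino acid carriers none met the rule. By limma 2 were higher than in beta cells and none lower (2 lower at an unadjusted p under 0.05 or with size factors, 1 with quantile normalization), and 3 were higher and 4 lower than in delta cells, with median differences of 0.32 and -0.11. The shares of all genes outside the rule were again 4.14%, 2.18%, 0.812% and 4.73%. Slc7a2, which takes up cationic amino acids, was higher in alpha than in both, at 131 ± 75.3 FPKM (SD, n = 5) against 41.3 ± 19.4 (n = 4) and 4.64 ± 1.71 (n = 6) (limma adjusted p = 0.0397 and 2.49e-06).

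Among enzymes of metabolism, Pdk4 ranked 2nd of all. The kinase it encodes inactivates pyruvate dehydrogenase and so limits the entry of pyruvate into the citric acid cycle. Its alpha values were 96.1, 90.3, 70.4, 143 and 150.4 FPKM, and the highest of the other 10 values was 0.895 FPKM (delta 6). Every alpha value was thus at least 78.7 times every other value, a wider gap than for Ttr (8.795 times) though narrower than for Gcg (101 times). Higd1a, a mitochondrial protein induced by hypoxia, ranked 4th at 41.7, 98.1, 51.3, 10.8 and 26.1 FPKM in alpha samples, with 4 of the other 10 values listed at 0 and none above 0.322 FPKM. Upp1 (uridine phosphorylase), Oat (ornithine aminotransferase), Mat1a (methionine adenosyltransferase), Pygl (glycogen phosphorylase) and Ppp1r3b, which targets a phosphatase to glycogen, were further members, with alpha means of 94.7, 18.2, 24.8, 9.45 and 4.697 FPKM. Of 35 tested genes of fuel metabolism, 1 met the rule with alpha above and 2 with alpha below (0.784% and 0.896% of all genes tested). Among the other 32, 2 were higher and 3 lower than in beta cells, and 1 was higher and 1 lower than in delta cells, against 4.14%, 2.18%, 0.812% and 4.73% of all genes outside the rule. These small counts moved with scaling, to 3 higher and 2 lower than in delta cells with size factors, and to 4 higher than in beta and 4 higher and 2 lower than in delta cells with quantile normalization. Fbp1 (fructose bisphosphatase) was higher than in beta cells, at 32.7, 0.106 and 20.4 FPKM (limma adjusted p = 3.47e-06 and 0.531).

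Matrix and adhesion proteins, a role assigned by hand to genes that met the rule and so without a share over all genes, numbered 13 of the 113, among them Lrrtm3, Mfap2, Igsf21, Egflam, Ntn4, Nid1, Cdh9, Nrxn3 and Lama2. Lrrtm3, a synaptic adhesion protein, was even across alpha samples (9.24 to 13.7 FPKM) and at no more than 0.977 FPKM in all others. Nrxn3 was uneven, from 0.378 to 11.8 FPKM. Col1a2, a fibrillar collagen chain, was at 0.848 to 3.79 FPKM in alpha cells and at most 0.0576 FPKM elsewhere. Of 9 markers of stellate cells and fibroblasts, among which Col1a2 is one, Col1a1, Pdgfra, Pdgfrb and Lum were listed at 0 in all alpha samples, and Dcn, Col3a1 and Acta2 had alpha means of 0.00455, 0.00155 and 0.0547 FPKM. Rgs5, the only other one tested, was at 1.31 FPKM in alpha, 0.5704 in beta and 0.613 in delta cells and was not called. The sum over the 9 ranged from 1.93 to 4.95 FPKM in alpha, 0.0972 to 0.908 in beta and 0.289 to 1.22 in delta samples, and Col1a2 and Rgs5 made up nearly all of it in alpha cells. Cav1, the main coat protein of caveolae, was at 15.6, 25.1, 10.2, 3.93 and 27.9 FPKM in alpha cells, listed at 0 in all 4 beta samples and at most 0.1398 FPKM in delta samples, and no other of the 4 tested caveolar genes met the rule. Sv2b, a glycoprotein of secretory vesicles, was at 9.52 to 21.6 FPKM in alpha and at most 1.22 FPKM elsewhere, and Rab27b, Rab38 and Sytl2 also act in granule traffic. Of 58 tested exocytosis genes, 2 had all alpha values above and none below (0.784% and 0.896% of all genes tested). Of the other 56, 3 were higher and 2 lower than in beta cells, and 1 was higher and 6 lower than in delta cells. The shares of all genes outside the rule were 4.14%, 2.18%, 0.812% and 4.73%. With size factors these counts were 4, 4, 2 and 6, and with quantile normalization 6, 3, 2 and 4.

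Some gene families had members on both sides, and the pairs named here were picked for that after the values were seen. Galnt13, an enzyme that starts mucin-type O-glycans, was at 11.3 to 23.7 FPKM in alpha and at most 0.256 FPKM in other samples, while Galnt14 had an alpha mean of 0.166 FPKM against 3.33 in beta and 2.56 in delta cells. St8sia6 stood opposite St8sia5 (sialyltransferases), Chst15 opposite Chst11 (chondroitin sulfotransferases), and Fam46d opposite Fam46a (nucleotidyltransferases). Sfrp5 was above and Frzb, another secreted Frizzled-related protein, below. Other related genes lay on the same side, such as Irx1 and Irx2 above, and S100a4, S100a6 and S100a10, Kcnip1 and Kcnip2, and Spock1 and Spock2 below.

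Of the genes with all alpha values below, Frzb ranked first, at 1.06, 1.397, 0.439, 0.844 and 2.35 FPKM in alpha, 37.04, 117, 17.8 and 55.5 FPKM in beta and between 42.9 and 95.6 (median 76.4) FPKM in delta samples. The beta and delta means were 46.8 and 60.9 times the alpha mean. Iapp, the islet amyloid polypeptide stored with insulin, was at 808, 908, 1019.8, 194 and 325 FPKM in alpha, 10831, 118008, 12747 and 22217 FPKM in beta and between 1629 and 7599 (median 3724) FPKM in delta samples. Its lowest delta value was only 1.598 times the highest alpha value. Pdyn (the precursor of dynorphin), Enho (the precursor of adropin), Ccl28 and Tnfrsf11b were the other secreted proteins on this side.

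The receptor gene Glp1r and the convertase gene Pcsk1 ranked 4th and 6th on this side, while other receptors ranked as low as 125th. Pcsk1, which encodes prohormone convertase 1/3, was at 2.36, 0.842, 0.589, 0.365 and 1.07 FPKM in alpha, 56.5, 263, 79.7 and 155 FPKM in beta and between 12.7 and 21.4 (median 15.1) FPKM in delta samples. Pcsk2, which encodes the convertase that releases glucagon, was not called in either comparison of alpha cells. Of 16 tested processing and granule genes, Pcsk1 alone met the rule. Of the other 15, none was higher (2 at an unadjusted p under 0.05) and 1 lower than in beta cells. Against delta cells 2 were higher and 2 lower. The shares of all genes outside the rule were 4.14%, 2.18%, 0.812% and 4.73%. Glp1r, the receptor for GLP-1, was at 2.19, 1.45, 1.203, 4.09 and 2.84 FPKM in alpha, 192, 250.2, 157 and 230.1 FPKM in beta and between 16.4 and 59.7 (median 38.1) FPKM in delta samples, the delta values lying between those of the other cells. Gcgr, the receptor for glucagon itself, was listed at 0 in all 5 alpha samples, at 2.12, 3.35, 0.529 and 0.648 FPKM in beta and between 0.0347 and 0.817 (median 0.362) FPKM in delta samples, all of them low values. Receptors, likewise assigned by hand, numbered 18 of the 129 genes. Among them were the purinergic receptor P2ry1, the alpha2A-adrenergic receptor Adra2a, the cannabinoid receptor Cnr1, the adenosine receptor Adora1, the glutamate receptor subunit Grin1, the growth hormone receptor Ghr and the insulin receptor-related receptor Insrr. Ghr was still at 16.8 to 32.03 FPKM in alpha cells, whereas P2ry1, Adora1 and Cnr1 had alpha means of 0.314, 0.0537 and 0.00519 FPKM.

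Of 5 transcription factors with alpha below, Pdx1 was at 2.16, 0.7799, 4.14, 0.858 and 1.23 FPKM in alpha, 14.5, 31.9, 13.2 and 16.3 FPKM in beta and between 12.4 and 25.3 (median 20.3) FPKM in delta samples. Mlxipl, the carbohydrate response element binding protein ChREBP, had alpha values up to 11.7 FPKM (alpha 3), close to the lowest beta value of 14.7 FPKM. Bhlhe40, Creb3l1 and Ikzf3 were the others. Metabolic enzymes, also a role assigned by hand without a share over all genes, made up 16 genes. Hadh, the mitochondrial 3-hydroxyacyl-CoA dehydrogenase that acts in fatty acid oxidation and inhibits glutamate dehydrogenase, was at 8.06, 9.19, 10.8, 1.88 and 4.61 FPKM in alpha, 112, 440.1, 55.3 and 109 FPKM in beta and between 50.9 and 172 (median 99.6) FPKM in delta samples. Acly (ATP citrate lyase) and Sqle (squalene epoxidase), both of lipid synthesis, were nearer to the other cells, with alpha means of 67.04 and 7.702 FPKM against 205 and 35.3 in beta and 173 and 14.3 in delta cells. Th, tyrosine hydroxylase, and Cat, catalase, had alpha means of 0.0176 and 0.0988 FPKM. Of the calcium-binding S100 genes, S100a4 was listed at 0 in 4 alpha samples and at 0.164 FPKM in alpha 4, against 1.16 to 43.02 FPKM elsewhere, and S100a6 and S100a10 had all alpha values below as well.

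Further genes of the first 15 on this side had other roles. Rasgrf1, a guanine nucleotide exchange factor for Ras, was at 0.782, 0.456, 0.0441, 1.35 and 0.0557 FPKM in alpha samples and at no less than 7.51 FPKM elsewhere. Kcnip1 was at 0.876, 1.24, 2.85, 0.181 and 1.46 FPKM in alpha and at no less than 11.2 FPKM in other samples. Sez6l, a transmembrane protein of neurons, was at 0.222 to 2.65 FPKM in alpha, 12.6 to 16.4 FPKM in beta and 13.6 to 133 FPKM in delta samples, so that delta cells held most. Vil1, the microvillar actin bundler villin, reached 0.986 FPKM in alpha cells against 6.14 FPKM or more elsewhere, and the testican Spock2 and the adhesion protein Adam22 reached 7.67 and 13.9 FPKM against at least 14.98 and 23.2 FPKM. Pdyn and Enho nearly met the other cells, since their highest alpha values of 1.76 and 9.64 FPKM lay just under the lowest other values of 2.37 and 9.95 FPKM.

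**Figure D4:**
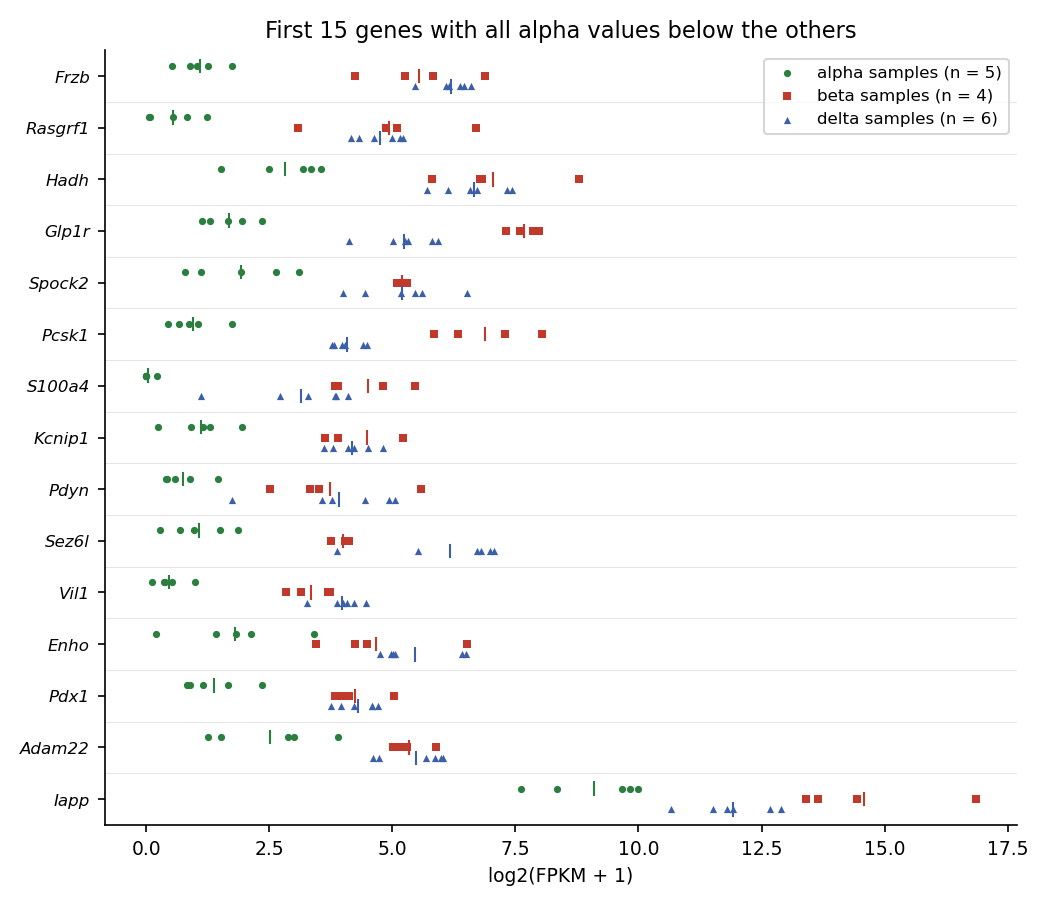
log2(FPKM + 1) of every sample for the 15 genes that ranked first with all alpha values below (circles, alpha, n = 5; squares, beta, n = 4; triangles, delta, n = 6; vertical bars, group means). Alpha values lie left of all others for every gene; Glp1r, Pcsk1 and Iapp are highest in beta cells, and Enho and Pdyn come closest to the alpha values.

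Whether these genes also differed between beta and delta cells was not used to rank them. Over all genes tested, limma called 1683 (11.7%) as higher in delta and 431 (2.99%) as higher in beta cells (adjusted p under 0.05), and 62.9% had the higher mean in delta cells. Of the 113 genes with alpha above, 14 (12.4%) were called higher and 2 (1.77%) lower in delta cells. With a pseudocount of 0.1, 22 were higher, and with size factors or quantile normalization 5 were lower. The 67 genes that passed the 1 FPKM limit through alpha cells alone hold none of these calls (1 gene at an unadjusted p under 0.05), being low in both other cell types. In the remaining 46 the calls amount to 30.4% and 4.35%, against 12.3% and 3.14% of the 13715 tested genes above the limit in beta or delta cells. That split uses the same beta and delta means that are compared, so these shares are only a description. Over all 113 genes, including the 67 low in both other cell types, the mean was higher in delta cells for 96 (85%). Their median difference was 0.23 against 0.30 over all genes tested. Median shares of the alpha mean were 0.895% in beta and 5.78% in delta cells, and 23 genes kept more than 10% of it in beta and 44 in delta cells. The 14 were Klhl13, Dbpht2, Sfrp5, Dmd, Peg10, Gadd45b, Ndst4, Kcnj3, Calb1, Nxph1, Rhou, Cryba2, Slc41a2 and Oat. Klhl13, a Cullin 3 adaptor, had delta values of 6.104 to 27.3 FPKM and beta values up to 1.12 FPKM (difference 3.32, limma adjusted p = 8.91e-05). For Dbpht2 the difference was 3.32 (limma adjusted p = 0.000241), with means of 179 FPKM in alpha, 10.7 in beta and 95.5 in delta cells. Ttr and Ppp1r3b were the 2 genes that were higher in beta than in delta cells (differences of -2.30 and -0.93, limma adjusted p = 0.00845 and 0.0485). The call of Ppp1r3b was marginal. It was lost with no filter (limma adjusted p = 0.0526), with the replicate block (0.0996) and without any 1 of the delta samples (0.0581 to 0.068), beta 2 (0.072) or beta 4 (0.141).

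**Figure D5:**
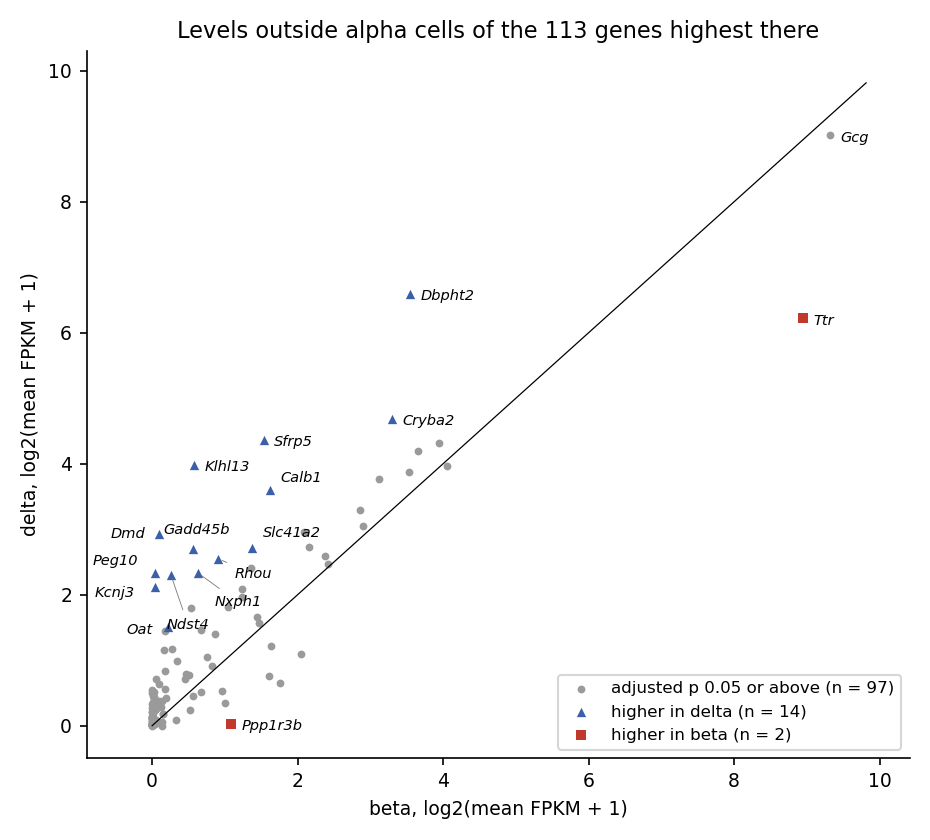
log2(mean FPKM + 1) in beta cells (x axis) and in delta cells (y axis) of the 113 genes with all alpha values above, with the line of equal values. Blue triangles are the 14 genes called higher and red squares the 2 called lower in delta than in beta cells by limma; Gcg lies near the line at the upper right.

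Among the 129 genes with alpha below, 14 (10.9%) were called higher in delta and 16 (12.4%) higher in beta cells, and 51.9% had the higher mean in delta cells. The even split depended on scaling, since with size factors 11 were higher in delta and 31 in beta cells, and with quantile normalization 13 and 33. Pcsk1, Glp1r, Iapp, Ppp1r1a (an inhibitor of protein phosphatase 1) and the adhesion protein Cntn1 were called higher in beta than in delta cells, with delta minus beta differences of -2.79, -2.44, -2.67, -2.07 and -2.78 (limma adjusted p at most 0.0165). Spock1, Sez6l, Cd44, Npnt and Cat were higher in delta cells, by 2.74, 2.17, 2.19, 1.78 and 1.74 (limma adjusted p at most 0.0142). Frzb, Hadh, Pdx1 and Rasgrf1 were not called in that comparison.

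Position in the genome was not used by the rule. Of the 113 genes, 13 (11.5%) lay on the X chromosome, against 3.68% of the tested genes with an annotation and 2.33% (3 genes) of the 129. Among them were Wnk3, Fam46d, Mamld1, Pou3f4, Dmd, Gm648, Klhl13, Arhgap6, 7SK, Eda2r and Map3k15. Xist was above 1 FPKM in 3 of 5 alpha, 2 of 4 beta and 4 of 6 delta samples and the Y-linked Eif2s3y in 2 samples of each cell type. Some genes that met the rule lay near one another, which is given as a description with no comparison to other genes. On the same side, Higd1a, Hhatl and Vipr1 lay within 175608 bases of each other on chromosome 9 (Higd1a at chr9:121848563-121858362), Ndst4 and Ugt8a 136371 bases apart on chromosome 3, and Peg10 and Col1a2 205761 bases apart on chromosome 6. Among genes with alpha below, S100a4 and S100a6 were 6836 and Slc12a7 and Slc6a19 28228 bases apart. Neighbours on opposite sides occurred as well, such as Slc41a2 (above) and Chst11 (below), 34947 bases apart, and AF529169 (above) and Rasgrf1 (below), 286782 bases apart. Of the 113 genes, 48.7% overlap another annotated gene, against 53.5% of the 129 and 60.1% of those tested. No source used here states that strand was used in counting, so values of overlapping genes such as Fam184b and AC093341.1, Grin1 and E130003G02Rik or Acot11 and Fam151a cannot be assigned to either gene with certainty.

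The rule's edges were close to some genes. St8sia6 (alpha mean 1.03 FPKM) was just inside the 1 FPKM limit, and Pgm5 (0.756 FPKM) just outside it with all alpha values above, as were Otoa (beta mean 0.9895 FPKM) and BC037032 (0.906 FPKM) with all below. Sprtn, the last of the 113, had a lowest alpha value of 2.29 FPKM and a highest other value of 2.16 FPKM. AC161812.1, the last of the 129, was listed at 0 in all alpha samples. Tmsb15l and Tmsb15b1, thymosin genes with alpha means of 94.1 and 160.4 FPKM, missed the rule because 1 alpha value each lay below beta 2. Alpha 4 was the alpha sample nearest to the others for 47 of the 113 genes, and the nearest other sample was a delta sample for 87.

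Genes listed as alpha cell markers were not all separate from the other cells. Of 15 tested, 7 met the rule with alpha above (0.784% of all genes tested), with Gcg, Irx2, Irx1, Pou3f4 and Ttr among them. Of the 8 outside the rule, 5 were higher than in beta cells and 1 higher than in delta cells by limma, against 4.14% and 0.812% of all genes outside the rule. These were Etv1, Gc, Slc7a2, Slc38a5 and Rgs4 against beta cells and Slc7a2 against delta cells. Gc, which encodes the vitamin D binding protein, was at 89.97 ± 24.4 FPKM (SD, n = 5) in alpha and 100.04 ± 17.1 (n = 6) in delta cells but at 17.9 ± 10.4 (n = 4) in beta cells (limma adjusted p = 0.00199 against beta and 0.884 against delta cells). Slc38a5, a glutamine transporter, and Rgs4, a regulator of G protein signalling, were also higher than in beta cells (limma adjusted p = 0.000736 and 0.000475 against beta, 0.0863 and 0.349 against delta cells). Slc38a5 was called higher than in delta cells with size factors (0.0413) and quantile normalization (0.0405). Tm4sf4 and Pcsk2 did not pass the test in either comparison. Dpp4, which encodes dipeptidyl peptidase 4, had a lower mean in alpha cells, at 15.5 ± 7.07 FPKM (SD, n = 5) against 35.6 ± 25.1 (n = 4) and 30.1 ± 4.85 (n = 6), and did not pass the test as deposited (limma adjusted p = 0.183 and 0.189). It was called lower than in beta cells with size factors (0.0115) and quantile normalization (0.0232), and lower than in delta cells with quantile normalization (0.028).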

How the data were processed

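RNA of sorted alpha, beta and delta cells was amplified with NuGEN kits and sequenced as single reads of 50 nt. FPKM values were made by the authors before deposit, with TopHat and Cufflinks 2.2.1 on the mouse genome GRCm38, and were taken as deposited. The submitters' processing notes name TopHat2 2.0.8. The authors tested raw counts with edgeR. Such counts were not used here, so log2(FPKM + 1) was fitted in limma 3.58.1 (R 4.3.3) with an intensity trend, all 15 samples in 1 fit and Benjamini-Hochberg adjustment over 14405 genes. The fit was tested on simulated data. Python 3.11.15 was used for the tables. Annotation was found for 36341 of the 38283 genes. Amplification and the lack of read totals mean that low FPKM values have an unknown depth.

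The 242 genes, their roles and the gene lists were chosen with earlier results of these data known. Genes named are the first 25 and 15 by rank, listed genes that met the rule or were called, those at the rule's edges, and others chosen after their values were seen. The sets of samples by ribosomal transcripts were divided at 50000 FPKM after the values were seen. Alternatives were another filter, pseudocount, scaling, replicate block, covariate or sample choice. A few genes are not reported here by name, though they stay in the counts.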

Additional observations from a re-analysis of the deposited data

Results flagged for a closer look

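For 37 of the named genes, 107 groups of 4 to 6 samples were examined for 1 sample far from the others (Dixon's 95% limit). On the FPKM scale 22 groups had one. Normal, independent groups would give about 5.35, but FPKM values are skewed, some are listed at 0 and the groups share samples. No excess is therefore read from this count. Of the 22, 8 lay in beta 2. In that sample Gcg was at 1817 FPKM, Upk3a at 0.406, Ctxn2 at 0.450, Hadh at 440.1, Pdyn at 47.3, Enho at 90.3, Pdx1 at 31.9 and Iapp at 118008 FPKM, each the highest of the 4 beta values.

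Among alpha samples, Sv2b was lowest in alpha 4 at 9.52 FPKM, S100a4 was highest in alpha 4 at 0.164 FPKM, and AC142191.1 was highest in alpha 3 at 65.5 FPKM. In the other beta samples the far values were low ones on an FPKM scale. AC142191.1 stood at 0.0656 and Sertm1 at 0.0447 in beta 1, Lrrtm3 at 0.00783 in beta 3, and Sv2b at 1.22 in beta 4. Among delta samples Upk3a (5.38) and AC142191.1 (1.36) were highest in delta 1, Hhatl (0.0732) and Gfra3 (0.794) in delta 2, Cav1 (0.140) in delta 5, and Irx1 (1.33) and Mfap2 (3.50) in delta 6.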

How the results depend on the processing

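Of 512 differences of alpha from beta or delta cells (the genes first by rank and the listed genes), no called one reversed under the alternatives run. The call was lost for 7 with a pseudocount of 0.1, 13 with size factors, 23 with quantile normalization, 5 with the ribosomal set as a covariate and 8 (delta 2) to 53 (alpha 2) without 1 replicate, and gained for 12, 18, 11, 3 and 0 to 6. With only alpha and beta samples fitted, 55 of the 256 differences from beta cells lost a call, and with only alpha and delta samples 12 of the 256 from delta cells. For genes that met the rule these contrasts chose them, so a kept call supports nothing. Genes with all alpha values above numbered 72 at a limit of 5 FPKM, 170 with size factors and 204 with quantile normalization, of which 105 and 108 were among the 113, and those below numbered 77 at 5 FPKM, 163 with size factors and 138 with quantile normalization, of which 112 and 89 were among the 129. Leaving out 1 replicate gave 113 to 175 above (most without alpha 4) and 131 to 210 below (most without alpha 5). Fitting only alpha and beta samples gave 299 genes higher and 221 lower in alpha than in beta cells, size factors gave 1096 and quantile normalization 937 lower. Against delta cells, genes higher numbered 137 at 5 FPKM, 345 with size factors and 470 with quantile normalization, and genes lower 381 at 5 FPKM. Leaving out 1 replicate gave 385 (beta 1) to 1373 (beta 2) higher and 261 (beta 4) to 695 (beta 3) lower against beta cells. Of the 113 genes, 22 were higher in delta than in beta cells with a pseudocount of 0.1. The number lower was 1 at 5 FPKM, where Ppp1r3b is not tested, 1 without a filter, 5 with size factors, 5 with quantile normalization and 1 to 3 without 1 replicate. Of the 129, 10 were lower at 5 FPKM, 31 with size factors and 33 with quantile normalization. The cause was not tested.

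Replicate numbers are shared across cell types, and 5 of 13 same-numbered pairs had correlated deviations (over 0.1, mean 0.0762). Samples were not treated as paired. Alpha and beta cells both came from sorts of Glu-Venus islets, and these correlations cannot decide whether any alpha and beta samples shared a pool. With the replicate block, 1 of the 113 genes (Ttr) was called higher in beta than in delta cells, and 40 of the 512 differences lost and 1 gained a call. The table gives no read depth, so low values carry an unknown counting error.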
